A study of Mus musculus with 22 samples.

Results

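A group of 43 interferon-stimulated genes and interferon-inducible GTPases was followed among the 53379 genes counted by mRNAseq in nuclei of the mouse hippocampus. The genes were taken by symbol, matched to the Ensembl identifiers of the count table. All 43 were found, and all 43 were among the 40714 genes that passed the filter on low counts. They were sorted by role into 3 transcription factors, 4 nucleic acid sensors, 21 antiviral effectors, 10 GTPases, 3 genes of ADP-ribosylation and ubiquitin, and 2 subunits of the immunoproteasome. The sensors and effectors together are called the 25 antiviral genes below.

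The nuclei came from adult male C57/BL6N mice at 24 h after status epilepticus, and from the hippocampus contralateral to the injection (CLH), which the sample titles give as the left one. Kainate, an agonist of glutamate receptors, or NaCl (sham) was injected above the right hippocampus. Only kainate mice with convulsive seizures were included. The 8 mice of each treatment were combined into 3 pools, from which nuclei positive and negative for NeuN, a protein of neuronal nuclei, were sorted. This gave 3 libraries of NeuN+ nuclei after kainate (KLp), 3 of NeuN+ nuclei after sham injection (SLp), 3 of NeuN- nuclei after kainate (KLn) and 2 of NeuN- nuclei after sham injection (SLn replicates 1 and 3). The NeuN+ fraction stands for neurons. The NeuN- fraction is mostly glia, but endothelial cells, pericytes and neurons that lack NeuN can be in it. Within a fraction, fewer cells of a type and less RNA per cell cannot be told apart.

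Interferons are secreted proteins that bind receptors at the cell surface, and Janus kinases and STAT proteins carry the signal to the nucleus. Genes that respond to type I interferon often carry the interferon-stimulated response element (ISRE), which is read by a complex that holds IRF9, and genes that respond to interferon gamma often carry the gamma-activated site (GAS). The genes induced in this way encode sensors of viral nucleic acids, proteins that block viral translation and replication, and GTPases that attack the vacuoles of intracellular parasites. In the brain, microglia, astrocytes and endothelial cells are known to respond to interferon, and neurons express part of the programme.

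Total counts per library were between 12058875 and 45428465. In the NeuN+ libraries the summed level of 8 neuron markers was 3620 to 8260 CPM (counts relative to the library size, scaled by the TMM method), against 592 to 898 CPM in the NeuN- libraries, and none of these markers was at 0 in a whole group. The summed level of 8 markers of a cell type varied widely among the NeuN- libraries, from 709 to 3990 CPM for microglia, 729 to 5100 CPM for astrocytes and 5050 to 39700 CPM for oligodendrocytes. SLn replicate 1 was the highest for each of these glial lists and KLn replicate 1 the second highest. The summed level of 8 endothelial markers was 37.4 to 62.4 CPM in KLn and 32.3 to 63.3 CPM in SLn, and that of 9 tested markers of blood leukocytes was 97.0 to 101 CPM and 88.5 to 99.6 CPM, so the ranges of KLn and SLn overlapped for each of these lists. Ptprc held 61.5 to 87.4 CPM of the leukocyte sum in KLn and 47.3 and 87.7 CPM in SLn, so that sum largely describes 1 gene. KLn replicate 2 and SLn replicate 1 were made from 0.05 ng of RNA with 15 cycles of PCR, where 1 ng and 10 cycles were used elsewhere. The part of the marker differences in the results below was not tested. With low RNA input as a covariate, the median log2 value of NeuN+ against NeuN- was -1.89 over the 43 members and -0.59 over all genes. For kainate in NeuN- nuclei that fit called 0 members, with medians of 0.58 and 0.18. Without both libraries of low input, the medians were -1.86 and -0.65 between fractions and 0.65 and -0.1 for kainate. The fit without both rests on SLn replicate 3 alone for sham.

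The 250 bases before the transcription start were searched for both elements on both strands in the 30 members with an entry in the RefSeq promoter table for GRCm38.p6. The core of the ISRE was written as GAAANNGAAA and the GAS as TTCNNNGAA, and the 2 patterns can overlap. The ISRE core was present in 15 of the 30 members (50%), against 3.46% of the 27025 genes in the table, and the GAS in 8 of the 30 (26.7%), against 8.13%. Mx1, Mx2, Oas2, Usp18, Ifi27, Ifi204, Iigp1, Gbp4, Gbp6, Parp9, Parp14, Rtp4 and Zbp1 had no entry. A match is a description of letters, not a site shown to be bound.

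Of the 8 members called for kainate in NeuN- nuclei with a replicate block, described below, Irf7 and Oasl1 held neither element in this window and Iigp1 and Ifi27 had no entry. The promoter stretches of the other 4 are shown with the matching letters in capitals, 5′ to 3′ on the strand of the gene. Isg15 (chr4:156200850-156200909, minus strand) holds 3 overlapping ISRE cores, Gbp2 (chr3:142620594-142620623, plus strand) holds 1 on the opposite strand, Irgm1 (chr11:48871428-48871457, minus strand) holds 2 that overlap, and Irf1 (chr11:53769899-53769958, plus strand) holds a GAS and no ISRE core. The stretch of Irgm1 lies wholly and that of Gbp2 partly in annotated exons, and only 30 bases of each are printed.
Isg15: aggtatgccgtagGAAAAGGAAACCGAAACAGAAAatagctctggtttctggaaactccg
Gbp2: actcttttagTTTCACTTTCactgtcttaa
Irgm1: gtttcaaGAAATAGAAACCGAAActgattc
Irf1: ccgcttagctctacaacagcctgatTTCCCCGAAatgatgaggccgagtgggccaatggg

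Some members lie beside related genes, and their promoters can be near copies. The stretches below show this for Ifit3 (chr19:34583382-34583441) and Ifit3b (chr19:34607778-34607837), which were identical over 60 bases, and for Igtp (chr11:58199496-58199555) and Irgm2 (chr11:58214888-58214947), which matched at 57 of 59 aligned bases, all on the plus strand. In Igtp and Irgm2 the first run of capitals is the GAS and the second the ISRE core.
Ifit3: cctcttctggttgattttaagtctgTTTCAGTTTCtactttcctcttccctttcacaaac
Ifit3b: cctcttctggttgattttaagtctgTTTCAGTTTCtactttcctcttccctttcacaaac
Igtp: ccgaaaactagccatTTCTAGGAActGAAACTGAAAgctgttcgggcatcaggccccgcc
Irgm2: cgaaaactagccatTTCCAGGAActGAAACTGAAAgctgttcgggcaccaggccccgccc

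Many members lie in clusters of related genes in GRCm38 (mm10), the build of the count table. The 4 Ifit genes span 99.3 kb of chromosome 19, Oas1a, Oas2 and Oas3 span 177 kb of chromosome 5, and Gbp2, Gbp3 and Gbp7 span 108 kb of chromosome 3. Igtp and Irgm2 lie within 23.2 kb of chromosome 11 and share 8.01% and 4.39% of their exon bases. Reads were counted only where they mapped to 1 place, so the levels of Ifit3 and Ifit3b, of the Oas, Gbp and Irg families and of Ifi204 are uncertain to the extent that copies share sequence. The libraries did not keep the strand, and Gbp6 shared 29.0% of its exon bases with another annotated gene, Ifi35 16.8%, Psmb8 14.7%, Rtp4 13.9% and Gbp7 11.3%.

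Neurons and glia were compared first, over both treatments. Relative to library size, most of the interferon-stimulated genes were higher in the NeuN- fraction. At FDR below 0.25 in edgeR's quasi-likelihood test, 38 of the 43 members were higher in NeuN- nuclei, a call made for 20.4% of all genes tested, and 0 were higher in NeuN+ nuclei, a call made for 16.8%. No member reached an unadjusted p below 0.05 toward NeuN+ in that test or in DESeq2. DESeq2 called 39 members higher in NeuN- and 0 higher in NeuN+, where it called 9904 and 7071 of the 40714 genes tested. The median log2 fold change of NeuN+ against NeuN- was -1.70 over the members and -0.47 over all genes tested, -1.70 over the 25 antiviral genes and -2.0 over the 10 GTPases. Without SLn replicate 3, the medians of the members and of all genes were -1.71 and 0.24. The libraries of the 2 fractions did not overlap for 28 members, all with NeuN- higher, which was so for 6.31% of all genes.

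**Figure D1:**
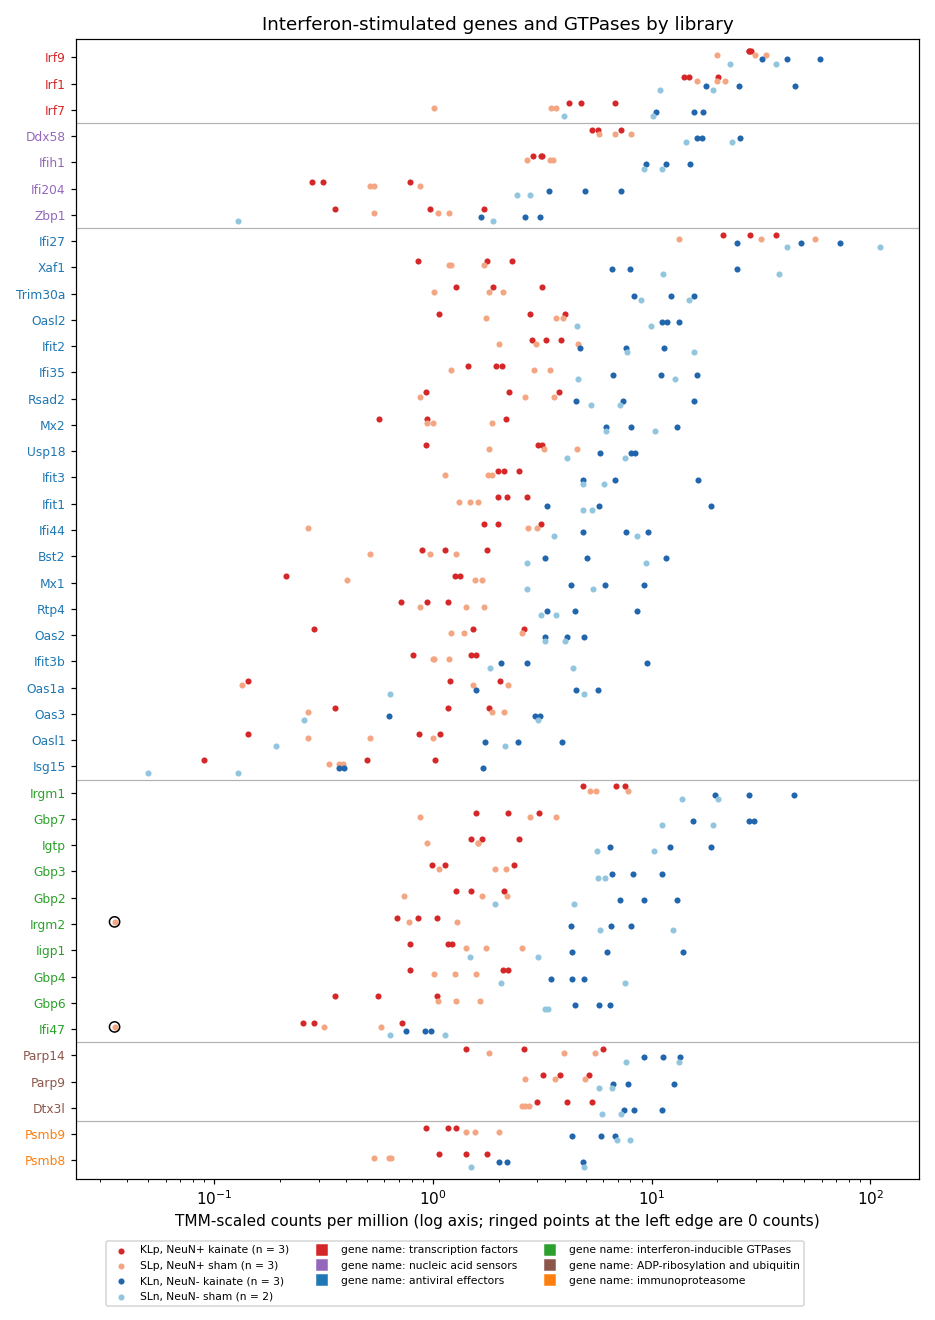
TMM-scaled CPM of the 43 members on a log axis, 1 point per library, coloured by group, with gene names coloured by role. Both NeuN- groups lie to the right of both NeuN+ groups without overlap for 28 members, and the 2 ringed points are the libraries with 0 counts, Irgm2 and Ifi47 in SLp replicate 1.

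Levels were compared between genes per kilobase of exon. Ifi27, a small mitochondrial and nuclear envelope protein, was first in all 4 groups, with 19.6 ± 5.35 CPM per kb in KLp, 22.9 ± 14.5 in SLp, 33.0 ± 16.5 in KLn (SD, n = 3 each) and 52.1 ± 33.4 in SLn (SD, n = 2). Irf9, the DNA-binding part of the complex that reads the ISRE, was second in KLp, SLp and KLn at 5.22 ± 0.0451, 5.12 ± 1.29 and 8.21 ± 2.53 CPM per kb (SD, n = 3). Irf1, a transcription factor induced by interferon gamma, came next in those 3 groups at 4.10 ± 0.839, 4.84 ± 0.724 and 7.37 ± 3.56 CPM per kb, so that Irf9 and Irf1 did not differ beyond their spread in SLp and KLn. In SLn, Bst2, a membrane protein that tethers budding virus, was second at 6.68 ± 5.26 CPM per kb, and Irf9 followed at 5.54 ± 1.85 (SD, n = 2), a difference within their spread. The median member was at 0.457 CPM per kb in KLp, 0.483 in SLp, 2.07 in KLn and 1.55 in SLn. In the NeuN+ libraries 4 to 19 of the 43 members lay below 1 CPM.

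Among the transcription factors, Irf7, the factor that amplifies type I interferon production, was higher in NeuN- nuclei, with a log2 value of NeuN+ against NeuN- of -1.41 ± 0.38 (SE, FDR = 0.0189). Irf9 and Irf1 were not called by edgeR's test, with values of -0.38 ± 0.26 (FDR = 0.337) and -0.24 ± 0.29 (FDR = 0.583). DESeq2 called Irf9 higher in NeuN- nuclei (FDR = 0.238) and did not call Irf1. These 2 factors had the highest NeuN+ levels of the list after Ifi27, with 28.0 to 28.4 CPM of Irf9 in KLp and 19.8 to 33.2 CPM in SLp. For Irf1, the log2 ratio of NeuN+ to NeuN- was 0.99 in sham pool 3 and -1.68 in kainate pool 1, so its pools did not share a direction.

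Of the sensors, Ddx58 and Ifih1 encode RIG-I and MDA5, the cytoplasmic receptors for viral RNA, and Ifi204 and Zbp1 bind nucleic acids as well. Ddx58 reached 5.34 to 8.09 CPM in the NeuN+ libraries and 14.4 to 25.3 CPM in the NeuN- libraries, with no overlap and a log2 value of -1.56 ± 0.26 (FDR = 0.000659). Ifi204 had the larger contrast, at -2.77 ± 0.44 (FDR = 0.000451), with 0.280 to 0.870 CPM in NeuN+ and 2.43 to 7.21 CPM in NeuN- libraries. Zbp1 was not called, at -0.69 ± 0.62 (FDR = 0.464), and SLn replicate 1 held 0.128 CPM of it, below every NeuN+ library.

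The extremes of the effectors and GTPases were picked after their values were seen. Xaf1, a partner of the inhibitor of apoptosis XIAP, had the largest contrast at -3.57 ± 0.46 (FDR = 9.33e-05), with 0.854 to 2.30 CPM in NeuN+ libraries and 6.60 to 38.1 CPM in NeuN- libraries. Irgm2, a regulatory member of the immunity-related GTPases, followed at -3.27 ± 0.59 (FDR = 0.00122), and the guanylate-binding protein Gbp7 at -3.00 ± 0.38 (FDR = 8.35e-05). Mx2, Trim30a and Igtp lay between -2.78 and -2.60. All 10 GTPases were called higher in NeuN-, with Ifi47 at the edge of the threshold (-1.29 ± 0.71, FDR = 0.25) and not called in most fits that left out a library. Of the 21 effectors, 19 were called, of which Ifi27 (-0.97 ± 0.40, FDR = 0.125) was lost without SLn replicate 1 (-0.51, FDR = 0.337). The exceptions were Oas3, an enzyme that makes 2-5A to activate RNase L, at -0.59 ± 0.71 (FDR = 0.577, and -0.73 ± 0.38, FDR = 0.164 with the pool as a block), and Isg15, the ubiquitin-like modifier, which was the only member with a positive value, at 0.73 ± 0.79 (FDR = 0.536).

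The ADP-ribosyltransferases Parp14 and Parp9 and their ubiquitin ligase partner Dtx3l were all called, at -1.62 ± 0.40, -0.94 ± 0.31 and -1.21 ± 0.29 (FDR = 0.0115, 0.0568 and 0.00907). Psmb8 and Psmb9, the inducible catalytic subunits that trim peptides for presentation on MHC class I, were called at -1.73 ± 0.46 and -2.24 ± 0.32 (FDR = 0.0161 and 0.000209). Psmb9 was at 0.925 to 2.01 CPM in every NeuN+ library and at 4.33 to 7.99 CPM in every NeuN- library. Psmb8 overlapped, with SLn replicate 3 at 1.49 CPM.

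NeuN+ and NeuN- nuclei of one number and treatment came from the same pool, which allowed the contrast to be read within 5 pools. In all 5, 36 of the 43 members (83.7%) were lower in NeuN+, against 19.4% of all genes. The exceptions were Isg15, Oas3, Oasl1, Irf1, Irf9, Iigp1 and Zbp1. The median member lay at a log2 ratio of -2.92 in kainate pool 1, -1.58 in kainate pool 2, -1.34 in kainate pool 3, -1.93 in sham pool 1 and -1.35 in sham pool 3. Both pools numbered 1 had the lowest medians, and their NeuN- libraries were also the 2 with the highest summed glial markers.

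**Figure D2:**
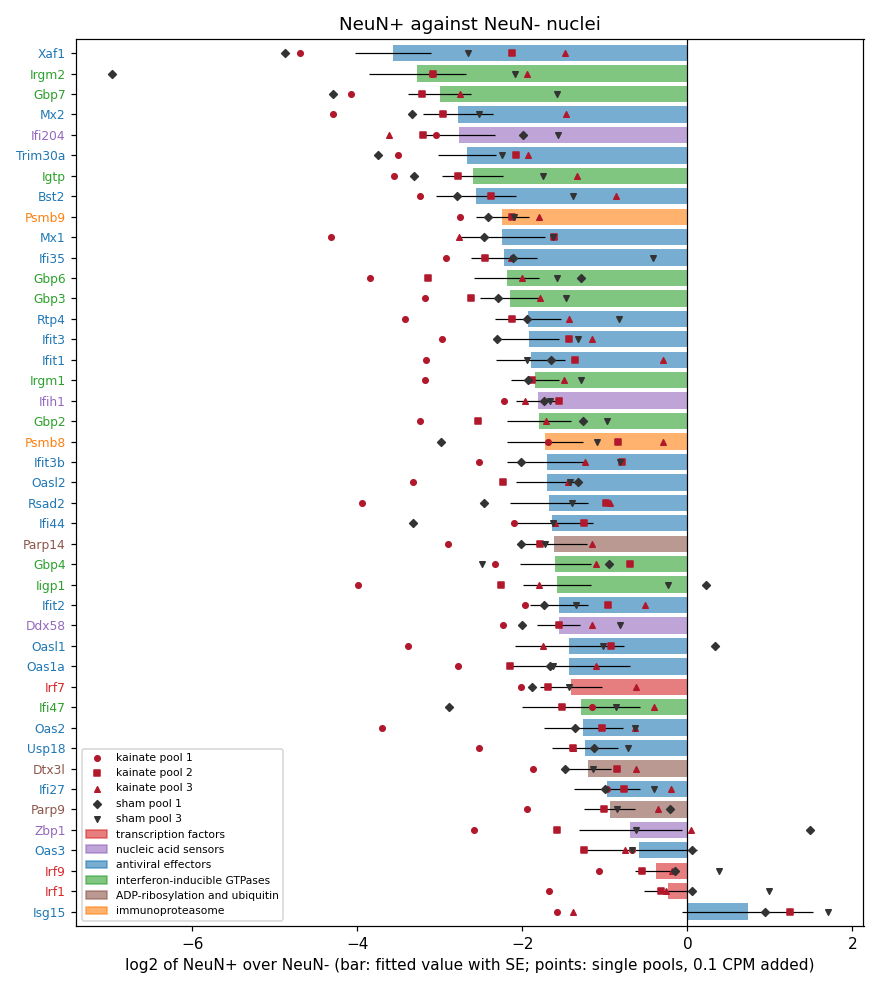
Log2 ratio of NeuN+ to NeuN- for each member, with the fitted value as a bar with its SE and the 5 single pools as points (0.1 CPM added before the logarithm). All bars apart from that of Isg15 lie below 0, and 36 members have all 5 points below 0.

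The question of the kainate comparison in NeuN- nuclei was whether status epilepticus left the interferon programme of glia at a different level. At FDR below 0.25, 0 members were called higher and 0 lower, calls that took in 0.0933% and 0.00737% of all genes. Most members leaned toward kainate without passing the test. The log2 fold change was above 0 in 35 of 43, with a median of 0.54 against 0.02 over all genes tested, and it was 0.43 over the 25 antiviral genes and 0.67 over the 10 GTPases. At an unadjusted p below 0.05, 4 members (Isg15, Irf1, Iigp1 and Gbp2) leaned toward kainate and 0 toward sham, where 2.05% of all genes passed in either direction. DESeq2 called 0 members at FDR below 0.25, where it called 179 of the 40714 genes tested higher and 55 lower. It had 3 members at that unadjusted p, all toward kainate, where 594 genes passed toward kainate and 575 toward sham.

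This median moved most with KLn replicate 1. That library was the highest of all 11 for 25 of the 43 members, and without it the median fell to 0.13, with 0.06 over all genes. Without SLn replicate 3, the library with the fewest counts, the median was 0.59 but that of all genes was 0.76, and 4 members were called higher where that fit called 5.53% of all genes higher. In the pair of replicate 1, 37 members were higher in KLn than in SLn, with a median log2 ratio of 0.97, and in the pair of replicate 3 it was 31, with a median of 0.15 (0.04 and 0.06 over all genes). The members without overlap between KLn and SLn were 10 with kainate higher (23.3%), against 4.70% of all genes, and 1 with kainate lower, against 3.52%. The former were Isg15, Oasl2, Irf7, Ifi204, Iigp1, Gbp2, Gbp3, Gbp6, Parp9 and Dtx3l, and the latter was Psmb9.

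When the replicate number was kept as a block, which leaves out KLn replicate 2 because it has no partner, 7 members were called higher after kainate in NeuN- nuclei and 1 lower. That fit called 2.93% of all genes higher and 2.86% lower. It rests on the pairs of replicates 1 and 3. In that of replicate 1, SLn was made from 0.05 ng of RNA and KLn from 1 ng, so treatment and RNA input cannot be told apart there. The 7 were the transcription factors Irf1 and Irf7, the GTPases Iigp1, Gbp2 and Irgm1 and the effectors Isg15 and Oasl1, and the lower one was Ifi27. Among the markers, that fit called 5 of 8 for astrocytes lower after kainate and 1 higher, 2 of 8 for microglia, 4 of 8 for oligodendrocytes, 5 of 8 for oligodendrocyte precursors and 1 of 8 for pericytes lower, 1 of 8 for neurons higher and 1 lower, and 0 for endothelial cells and blood leukocytes. The part of these cell types in the calls was not tested.

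Irf1 (ENSMUSG00000018899.16) had 45.1, 25.1 and 17.7 CPM in KLn replicates 1, 2 and 3 and 19.1 and 10.9 CPM in SLn replicates 1 and 3. KLn replicate 3 lay below SLn replicate 1, so the groups overlapped, while within each pair kainate was higher. The log2 fold change was 0.97 ± 0.45 (SE, FDR = 1.00, unadjusted p = 0.050 in edgeR's test across all genes) and 0.98 ± 0.28 with the block (FDR = 0.0456). Irf7 (ENSMUSG00000025498.15) had 17.2, 15.6 and 10.5 CPM in KLn and 3.96 and 10.1 CPM in SLn. All 3 kainate libraries were higher than both sham libraries, but those of replicate 3 differed by only 0.05 on the log2 scale against 2.09 for replicate 1. The log2 fold change was 1.03 ± 0.58 (FDR = 1.00) and 1.04 ± 0.40 with the block (FDR = 0.231). Irf9 had the highest mean of the factors, with 32.0 to 58.9 CPM in KLn and 22.8 and 36.9 CPM in SLn, and was not called with or without the block (0.57 ± 0.39, FDR = 1.00).

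Among the GTPases, Iigp1 (ENSMUSG00000054072.11), an effector that coats pathogen vacuoles, had 13.9, 6.24 and 4.33 CPM in KLn and 1.47 and 3.02 CPM in SLn. The groups did not overlap, and the pair of replicate 1 differed by 3.16 and that of replicate 3 by 0.50 on the log2 scale. The log2 fold change was 1.85 ± 0.65 (FDR = 1.00, unadjusted p = 0.0127 in edgeR's test) and 1.81 ± 0.51 with the block (FDR = 0.0328). Gbp2 (ENSMUSG00000028270.12), a guanylate-binding protein whose promoter stretch with the ISRE core is shown above, had 13, 9.23 and 7.14 CPM in KLn and 1.92 and 4.41 CPM in SLn. It too had no overlap, with a log2 fold change of 1.62 ± 0.61 (FDR = 1.00, unadjusted p = 0.0183 in edgeR's test) and 1.66 ± 0.45 with the block (FDR = 0.0243). Irgm1 (ENSMUSG00000046879.7), a regulator of the other immunity-related GTPases and the member of this role with the highest CPM, not scaled for length, had 44.7, 28.0 and 19.5 CPM in KLn and 20.2 and 13.7 CPM in SLn. KLn replicate 3 lay below SLn replicate 1, and the log2 fold change was 0.86 ± 0.43 (FDR = 1.00) and 0.83 ± 0.29 with the block (FDR = 0.153). Over the 10 GTPases, 7 log2 values were above 0 and 3 below, from -0.54 to 1.85.

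Among the effectors, Isg15 (ENSMUSG00000035692.6) was close to the limit of detection. It had 27, 11 and 14 counts in KLn and 2 and 1 counts in SLn, which is 1.69, 0.373 and 0.393 CPM against 0.128 and 0.0496 CPM. Summed over libraries, 52 counts stood against 3, a ratio of 7.66 with an exact 95% interval of 2.48 to 38.4 that covers counting error only. The fitted log2 fold change was 3.15 ± 1.32 (FDR = 1.00, unadjusted p = 0.0322 in edgeR's test) and 3.37 ± 1.23 with the block (FDR = 0.177). Oasl1, a relative of the 2-5A enzymes that lacks their activity, had 2.45, 1.73 and 3.88 CPM in KLn and 0.192 and 2.13 CPM in SLn. SLn replicate 3 lay above KLn replicate 2, and the log2 fold change was 1.19 ± 1.01 (FDR = 1.00) and 1.86 ± 0.68 with the block (FDR = 0.173). Ifi27, the most abundant effector, had 72.8, 48.1 and 24.5 CPM in KLn and 111 and 41.8 CPM in SLn. Its log2 fold change was -0.66 ± 0.59 (FDR = 1.00) and -0.69 ± 0.27 with the block (FDR = 0.241), and without SLn replicate 1, made from little RNA and highest for glial markers, it was 0.24. Xaf1 was at -0.93 ± 0.63 (FDR = 1.00) and at 0.23 without that library. Over the 21 effectors, 18 log2 values were above 0 and 3 (Xaf1, Ifi27 and Ifit2) below.

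The remaining roles gave no call with or without the block. Of the sensors, Ifi204 had 7.21, 3.39 and 4.97 CPM in KLn and 2.43 and 2.78 CPM in SLn, with a log2 fold change of 0.99 ± 0.64 (FDR = 1.00). Zbp1 had a larger value of 1.27 ± 0.96 (FDR = 1.00), which came from 0.128 CPM in SLn replicate 1 against 1.88 CPM in SLn replicate 3. Parp9 and Dtx3l, which are transcribed from a shared locus and overlap by 9.40% and 8.00% of their exon bases, had 0.54 ± 0.48 and 0.44 ± 0.44 (FDR = 1.00 each), and reads of the shared bases cannot be told apart. Psmb9 had 6.77, 5.87 and 4.33 CPM in KLn and 7.99 and 6.94 CPM in SLn, with sham above kainate in every library and a log2 fold change of -0.40 ± 0.47 (FDR = 1.00). Psmb8 was at -0.09 ± 0.67 (FDR = 1.00).

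**Figure D3:**
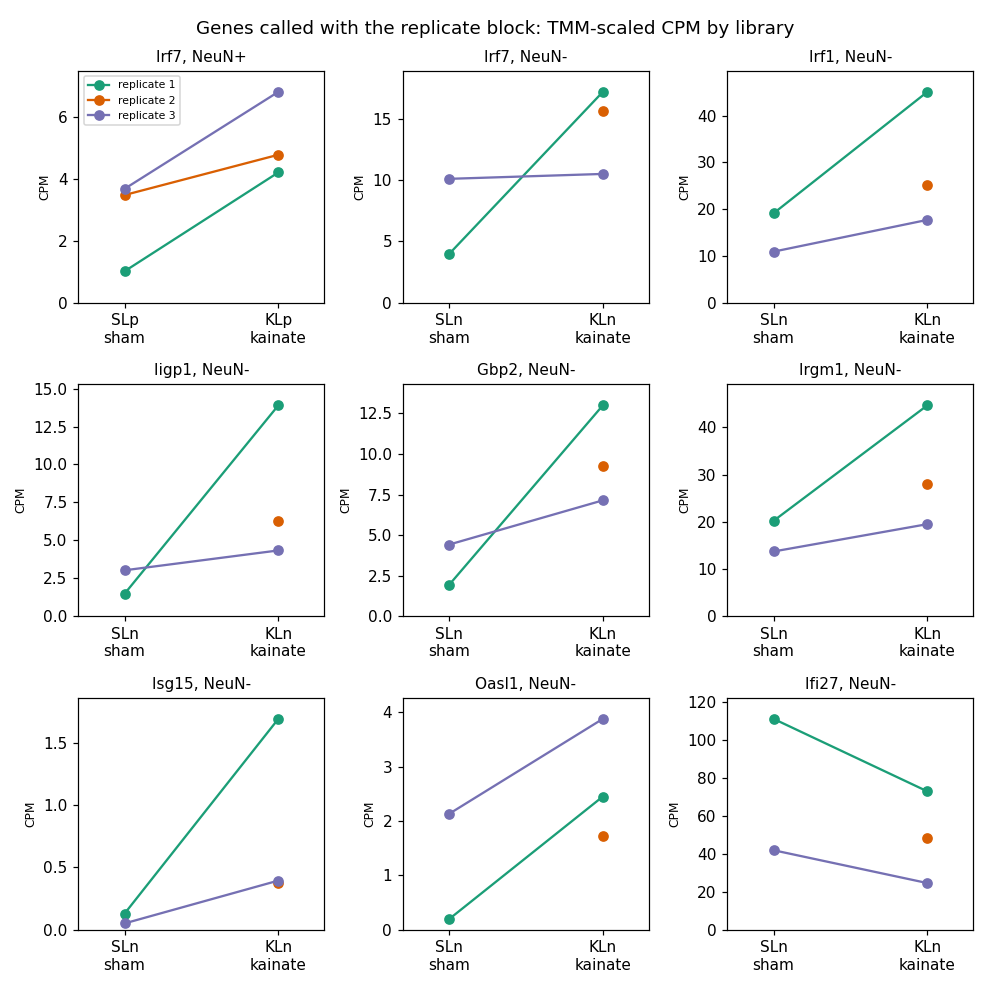
TMM-scaled CPM of the 8 genes called with the replicate block, by library, with lines that join kainate and sham libraries of the same replicate number. KLn replicate 2 has no partner and stands alone, and in Iigp1, Gbp2 and Irf7 the line in NeuN- nuclei is steeper in replicate 1 than in replicate 3.

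In NeuN+ nuclei no difference of these genes between kainate and sham injection passed the test without the block, and the log2 values lay on both sides of 0. At FDR below 0.25, 0 members were called higher and 0 lower, where 0.157% and 0.00737% of all genes were. At an unadjusted p below 0.05 there were 0 members, against 2.09% of all genes. DESeq2 called 0 members, where it called 272 of the 40714 genes tested higher and 60 lower. It had 1 member, Gbp6, at that unadjusted p, toward sham, where 699 genes passed toward kainate and 388 toward sham. The log2 fold change was above 0 in 22 members and below 0 in 21, with a median of 0.03 against -0.01 over all genes tested. The median was -0.05 for the 25 antiviral genes and 0.06 for the 10 GTPases, and that of all members was -0.21 without SLp replicate 1 and 0.22 without KLp replicate 1. Without overlap between KLp and SLp were 5 members with kainate higher (Ifit1, Ifit3, Irf7, Dtx3l and Psmb8), against 4.26% of all genes, and 3 with kainate lower (Iigp1, Gbp6 and Psmb9), against 3.60%.

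With the replicate block, Irf7 was the 1 member called higher, where that fit called 3.19% of all genes higher, and 0 were called lower, against 1.90% of all genes. Irf7 had 4.20, 4.77 and 6.80 CPM in KLp replicates 1 to 3 and 1.01, 3.47 and 3.67 CPM in SLp. The groups did not overlap, and kainate was higher in each of the 3 pairs. The log2 fold change was 0.93 ± 0.51 (SE, FDR = 1.00) and 1.02 ± 0.33 with the block (FDR = 0.102). Glial markers were called in NeuN+ nuclei by the same fit, with 4 of 8 for astrocytes higher after kainate and 2 lower, and 2 of 8 for microglia higher and 1 lower. For oligodendrocytes and for their precursors 1 of 8 was higher and 1 lower. The astrocyte marker values ran from -0.65 (Slc1a3, FDR = 0.0503) to 1.78 (Gfap, FDR = 3.17e-08) among those called, and the microglia values from -0.63 (P2ry12, FDR = 0.216) to 1.12 (Csf1r, FDR = 3.36e-05). The part of glial RNA in the value of Irf7 was not tested. The other transcription factors gave -0.24 ± 0.39 for Irf1 and 0.03 ± 0.35 for Irf9 (FDR = 1.00 each).

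The members closest to the threshold in NeuN+ nuclei pointed both ways. Psmb8 had 1.42, 1.07 and 1.76 CPM in KLp and 0.537, 0.632 and 0.645 CPM in SLp, with a log2 fold change of 1.21 ± 0.62 (FDR = 1.00), while its partner Psmb9 was lower in each kainate library (-0.55 ± 0.44, FDR = 1.00). The GTPase Gbp6 had 0.356, 0.561 and 1.04 CPM in KLp and 1.28, 1.64 and 1.06 CPM in SLp, a value of -1.01 ± 0.53 (FDR = 1.00), and Iigp1 was at -0.83 ± 0.56 (FDR = 1.00). Dtx3l was at 0.65 ± 0.39 and Parp14 at -0.17 ± 0.54 (FDR = 1.00 each). Among effectors and sensors the values were 0.64 ± 0.57 for Ifit1, an RNA-binding inhibitor of translation, -0.50 ± 0.53 for Rtp4, -0.54 ± 0.60 for Ifi204 and -0.18 ± 0.35 for Ddx58 (FDR = 1.00 each). Irgm2 and Ifi47 had 0 counts in SLp replicate 1, where 3 counts would be 0.141 CPM.

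**Figure D4:**
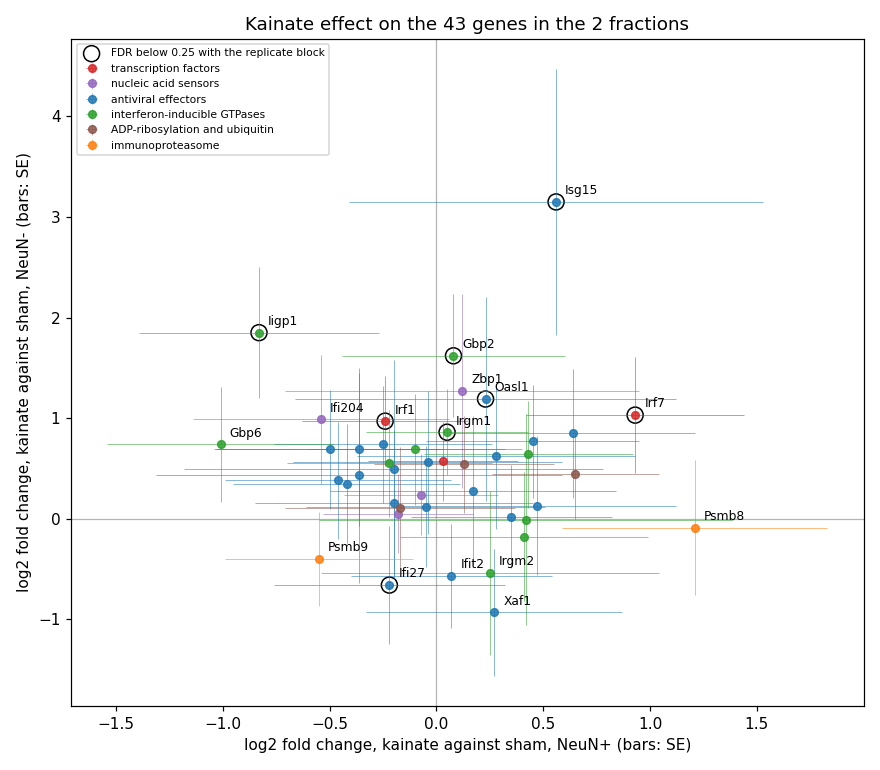
Log2 fold change of kainate against sham for the 43 members in NeuN+ (horizontal axis) and NeuN- nuclei (vertical axis), with SE as bars and colours for roles. The members spread to both sides of 0 along the horizontal axis, 35 lie above 0 on the vertical axis, and the ringed genes are those called with the replicate block in either fraction.

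The difference between the kainate effects in the 2 fractions was tested as an interaction. At FDR below 0.25, 0 members were called, and 1 gene of all tested (0.00246%) was. At an unadjusted p below 0.05 there were 2 members, Iigp1 and Gbp6, against 0.909% of all genes. DESeq2 called 0 members, where it called 20 of the 40714 genes tested with positive and 7 with negative values. It had the same 2 members at that unadjusted p, where 312 genes passed with positive and 230 with negative values. The value for Iigp1 was -2.68 ± 0.85 (FDR = 1.00, unadjusted p = 0.00704 in edgeR's test), a negative value meaning that the kainate effect was lower in NeuN+ than in NeuN- nuclei, and for Gbp6 it was -1.75 ± 0.78 (FDR = 1.00). With the replicate block, 2 members were called, Iigp1 at -2.59 ± 0.66 (FDR = 0.0336) and Irf1 at -1.21 ± 0.37 (FDR = 0.128), where that fit called 1.94% of all genes. Among the markers it called 5 of 8 for astrocytes, 2 of 8 for microglia, 1 of 8 for oligodendrocytes, 2 of 8 for their precursors and 1 of 8 for pericytes, all with positive values, opposite in sign to Iigp1 and Irf1, and 0 for neurons, endothelial cells and blood leukocytes. The part of these cell types in the calls was not tested. Iigp1 was higher after kainate in both NeuN- pairs and lower in all 3 NeuN+ pairs. In the NeuN- pair of replicate 1, only the sham library was made from low RNA input. Gbp2, called with the block in NeuN- nuclei, had an interaction of -1.54 ± 0.79 (FDR = 1.00).

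Libraries of one replicate number shared features across groups. Replicate 1 was the lowest library of its group in all 4 groups for 3 members, Oas1a, Oas3 and Usp18 (6.98%, against 24.7% of all genes), and the highest in all 4 groups for 1 member, Ifi27 (2.33%, against 19.6%). Oas1a had 0.142 and 0.134 CPM in KLp and SLp replicate 1 and 1.20 to 2.21 CPM in the other NeuN+ libraries. In NeuN- nuclei it had 1.57 and 0.639 CPM in replicate 1 and 4.50 to 5.67 CPM in the others.

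**Figure D5:**
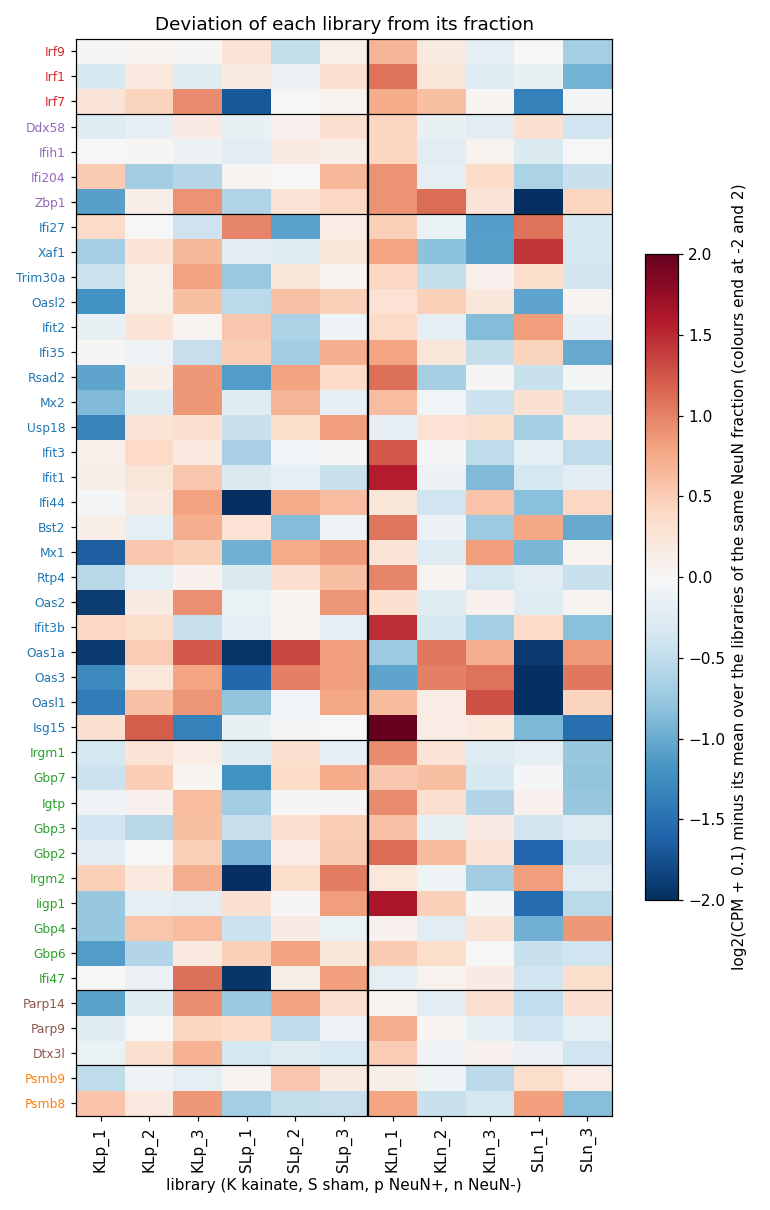
Log2(CPM + 0.1) of each member minus its mean over the libraries of the same NeuN fraction, with libraries as columns and members grouped by role as rows. KLn replicate 1 is above the mean of the NeuN- libraries for most members, and Oas1a and Oas3 are below it in replicate 1 of every group.

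The genes around this programme were described from lists of the pathway. Of 21 interferon genes, 15 passed the filter, with group means of 0.0170 to 1.78 CPM, and 0 were called in either kainate comparison. Ifnb1 is given outside the rule for the lists, as the main type I interferon of most cells. It had 0.690, 1.66 and 1.83 CPM in KLn and 0.511 and 1.64 CPM in SLn, so the groups overlapped. The interferon genes with the smallest p were Ifna13 (-2.56, FDR = 1.00) and Ifna14 (1.96, FDR = 1.00) in NeuN+, at group means of at most 0.179 CPM, and Ifna2 (-0.97, FDR = 1.00) and Ifnl3 (0.87, FDR = 1.00) in NeuN-.

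Of 12 receptors and JAK-STAT components, 0 were called by the fit without the block. With the block, Stat2 and Socs1 were called higher in NeuN- nuclei and Tyk2 lower in NeuN+ nuclei, where that fit called 2.93% and 1.90% of all genes. Socs1, the inhibitor that closes the pathway, had 17.7, 8.79 and 5.0 CPM in KLn and 7.80 and 2.73 CPM in SLn (0.99 ± 0.63, FDR = 1.00, and 1.03 ± 0.38 with the block, FDR = 0.178). Stat2, the partner of IRF9, had 181, 115 and 81.1 CPM in KLn and 95.7 and 62.6 CPM in SLn (0.67 ± 0.41, FDR = 1.00, and 0.65 ± 0.23 with the block, FDR = 0.140). The Janus kinase Tyk2 had 113, 118 and 88.0 CPM in KLp and 170, 140 and 167 CPM in SLp (-0.58 ± 0.32, FDR = 1.00, and -0.59 ± 0.18 with the block, FDR = 0.0716). Of 14 genes that induce interferon, 0 were called without the block and 1 with it, Tlr3, the endosomal receptor for double-stranded RNA, which was lower in NeuN- nuclei after kainate, as were 2.86% of all genes by that fit (-0.99 ± 0.70, FDR = 1.00, and -1.0 ± 0.35 with the block, FDR = 0.138). Tlr3 had 26.1, 11.3 and 5.79 CPM in KLn and 42.4 and 14.5 CPM in SLn, and was highest in the same 2 libraries as the glial markers. The next smallest p there was that of Tmem173, which encodes STING (-0.65, FDR = 1.00), and in NeuN+ nuclei the smallest were those of the adaptor Myd88 (0.50 ± 0.37, FDR = 1.00) and of Tlr3 (-0.68 ± 0.68, FDR = 1.00).

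Of 33 further interferon-stimulated genes outside the 43, 0 were called by the fit without the block in either comparison, with medians of 0.27 in NeuN- and -0.06 in NeuN+ nuclei. With the block, 4 were called higher in NeuN- nuclei, where that fit called 2.93% of all genes higher, and 2 in NeuN+ nuclei, against 3.19%. The chemokine Cxcl10 had 20.9, 4.89 and 4.52 CPM in KLn and 2.81 and 2.18 CPM in SLn, without overlap (2.01 ± 0.78, FDR = 1.00, and 1.98 ± 0.46 with the block, FDR = 0.00521). Nlrc5, the activator of MHC class I genes, had 28.8, 37.3 and 32.9 CPM in KLn and 7.60 and 16.3 CPM in SLn (1.47 ± 0.60, FDR = 1.00, and 1.45 ± 0.31 with the block, FDR = 0.00205). The MHC class I genes H2-K1 and H2-D1 were the other 2 called in NeuN- nuclei (FDR = 0.102 and 0.217 with the block). In NeuN+ nuclei Slfn2, a regulator of immune cell quiescence, had 1.78, 0.841 and 1.17 CPM in KLp and 0.269, 0.373 and 0.387 CPM in SLp (1.83 ± 0.55, FDR = 0.849, and 1.72 ± 0.48 with the block, FDR = 0.0312), and H2-D1 was called with the block at FDR = 0.134. The next smallest p there was that of Trim25, a ubiquitin ligase that activates RIG-I (0.71 ± 0.57, FDR = 1.00).

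Among the 30 members with a promoter entry, the 15 with the ISRE core had a median log2 fold change for kainate in NeuN- nuclei of 0.62, with 14 of 15 above 0, and the 15 without it had a median of 0.28, with 10 above 0. In NeuN+ nuclei the medians were 0.25 and 0.07, and for NeuN+ against NeuN- they were -1.90 and -1.56. The ranges of both sets overlapped in each comparison, and these values are descriptions.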

How the data were processed

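mRNAseq was analysed for 11 libraries of sorted nuclei, grouped by their titles. The authors trimmed reads with Trim Galore 0.4.3, used Rsubread for alignment to mm10, and assigned reads with a single mapping place to GENCODE M16 genes by featureCounts. What they deposited are raw counts, not normalized. Libraries were sequenced on either of 2 instruments, and which library ran on which was not given in the sources used here. The labels' protocol names the right hippocampi where the titles say left. The bisulfite data were not used here.

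Genes without a symbol (105) were left out, edgeR's filterByExpr (minimum count 10, minimum total 15) kept 40714, and counts were scaled by TMM. A quasi-likelihood model (glmQLFit, legacy=TRUE) took all libraries together, with 1 mean for each of the 4 groups, with Benjamini-Hochberg adjustment over all genes tested and calls at FDR below 0.25, the threshold of the study's methods. SE is the log2 fold change divided by the root of F. The p-values for kainate within a fraction measure the spread between pools. The interaction, and the comparison of fractions without the pool block, treat both fractions of a pool as independent. With a block, the p-values measure the spread left within pairs of libraries. Intervals cover counting error only. The tools were edgeR 4.0.16 and DESeq2 1.42.0 in R 4.3.3 (with limma 3.58.1). The fits were tested on simulated data, where most of the changes put in were missed in both kainate comparisons.

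Replicate numbers were taken to pair the samples. Deviations from the group mean of same-numbered kainate and sham libraries correlated, across genes, at 0.643, 0.161 and 0.491 in NeuN+ and 0.760 and 0.787 in NeuN- nuclei, while the labels give no origin for the shared numbers across treatments. With 2 libraries in SLn, their deviations mirror each other, so the values of the NeuN- pairs are not independent. The block was the number within each fraction, and the pool for the comparison of fractions.

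Members and lists were chosen with earlier results of these data known. All members are counted by role. Named were those called in a kainate comparison or the interaction, with or without the block, the 2 with the smallest p per role in each comparison of kainate with sham within a fraction, the one with the highest mean CPM per role and those at 0. From pathway lists, the 2 genes with the smallest p per list in each of these comparisons were named, with those called with the block and Ifnb1. Values between fractions are given for these genes and for examples chosen after their values were seen. Exon lengths and overlaps are from GENCODE release M21 and promoters from RefSeq, both on GRCm38. Alternatives were other scaling, tests, filters, thresholds and sets of libraries.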

Additional observations from a re-analysis of the deposited data

Results flagged for a closer look

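The kainate effects on 2 genes differed between the fractions by the test of the difference itself with the replicate block. For Iigp1 the interaction of treatment and fraction was -2.59 on the log2 scale (FDR = 0.0336), and for Irf1 it was -1.21 (FDR = 0.128). That fit called 1.94% of all genes, and among the markers 5 of 8 for astrocytes and 2 of 8 for microglia, with positive values. The part of these cell types was not tested. Without the block the values were -2.68 and -1.20 (FDR = 1.00 each). Both genes were higher after kainate in the 2 NeuN- pairs. In that of replicate 1, only the sham library was made from low RNA input. Groups of 2 or 3 libraries were too small for a check of single outlying libraries.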

How the results depend on the processing

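Only the replicate block and the omission of SLn replicate 3 moved a count of called members by more than 1.5 times. With the block, the counts were 1 higher in NeuN+, 7 higher and 1 lower in NeuN- and 2 in the interaction, each against 0. Between fractions the pool block called 39 in place of 38, adding Oas3. It called 14173 of the 40714 genes tested higher in NeuN-, against 8323 without the block. With SLn replicate 3 left out, 4 members were called higher in NeuN- (Oasl1, Iigp1, Gbp2 and Zbp1, at log2 values of 3.76, 2.46, 2.34 and 4.20), where 5.53% of all genes were, and that count ranged from 0 to 4 as each library was left out. In that fit SLn replicate 1 stands alone and is taken to vary like the other groups. Leaving out both libraries of low RNA input gave 0 calls for kainate, but SLn replicate 3 then stands alone in the same way, so this count says nothing of stability. DESeq2 gave no adjusted p for Isg15 and Ifi47 in either kainate comparison, nor for Oas3, Oasl1 and Zbp1 in NeuN-, and these are in none of its counts of calls. Members higher in NeuN- than in NeuN+ numbered 32 at FDR below 0.05 and 35 to 39 over the other alternatives run. Over those, the median log2 value of NeuN+ against NeuN- ran from -1.97 to -1.51 for the members. For all genes it ran from -0.66 to 0.24.

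Of the named genes, those below changed sign, each without a call under the setting given. Without both libraries of low input, the NeuN- values were 0.48 for Xaf1, 0.24 for Ifi27 and 1.25 for Psmb8, and without SLn replicate 1 they were 0.23, 0.24 and 1.03. Psmb8 was also at 0.08 with low input as a covariate, 0.25 with the block, 0.13 without KLn replicate 2 and 0.01 without KLn replicate 3. In NeuN+, Irf9 was at -0.02 without a filter, -0.16 without SLp replicate 2 and -0.01 without KLn replicate 1, and Parp14 at 0.18 without KLp replicate 1 and 0.21 without SLp replicate 2. Between fractions, Irf1 was at 0.02 without SLn replicate 1, and Oas3 and Zbp1 at 0.75 and 0.79 without SLn replicate 3. As each library was left out, the values ran from -0.16 to 0.19 for Irf9 and -0.88 to 0.21 for Parp14 in NeuN+, from -1.9 to 0.23 for Xaf1, -1.21 to 0.24 for Ifi27 and -0.75 to 1.03 for Psmb8 in NeuN-, and from -0.56 to 0.02 for Irf1, -0.99 to 0.75 for Oas3 and -1.1 to 0.79 for Zbp1 between fractions. The cause was not tested.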
